A study of Mus musculus with 2 samples.

Results

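The 6 genes described here encode the plasminogen activators Plau and Plat, the urokinase receptor Plaur, and the serpins Serpinb2, Serpine2 and Serpinf1. They were chosen by gene symbol, and all 6 are among the 37309 genes of the deposited table. RNA sequencing was performed on 1 library of supportive intestinal subepithelial myofibroblasts (ISEMFs) and 1 library of non-supportive ISEMFs. Supportive ISEMFs were grown from the small intestine of neonatal C57BL/6 mice, which were 5 days old in the study's methods, and non-supportive ISEMFs from adult C57BL/6 mice, described there as 2 months old. Both were wild-type cells, isolated in the same way and expanded in serum-containing medium with insulin, transferrin and epidermal growth factor. The number of mice behind each library and the passage of the sequenced cells are not given in the sources used here, and the population names in the deposited table carry suffixes that differ and are not explained. Support refers to the growth of small intestinal crypts on these cells without added R-spondin. With 1 library per population, no difference reported here has a replicate check, and population, age of the mice, isolation and any difference in passage cannot be told apart.

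Plasminogen is a circulating zymogen that urokinase (uPA, gene Plau) and tissue plasminogen activator (tPA, gene Plat) cleave to plasmin, a protease that degrades fibrin and pericellular matrix. The receptor uPAR (gene Plaur) is a GPI-anchored protein that holds uPA at the cell surface. Serpins are inhibitors that trap a target protease in a covalent complex, which endocytic receptors of the LDL receptor family then clear. Plasminogen activator inhibitor-2 (gene Serpinb2) and protease nexin-1 (gene Serpine2) act on plasminogen activators, and protease nexin-1 also acts on thrombin. Pigment epithelium-derived factor (PEDF, gene Serpinf1) has the serpin fold but does not inhibit proteases, and it is known as a secreted anti-angiogenic and neurotrophic factor.

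The 6 genes did not move together. Serpinf1 was higher in supportive ISEMFs, Plaur and Serpinb2 were lower, Plau was lower by slightly less than 2-fold, and Plat and Serpine2 were modestly higher. Levels are given as RPKM, the reads of a gene scaled by its exon length and by library size, and genes reaching an RPKM of 1 in either library are called expressed. At a 2-fold threshold, 1 of the 6 genes was higher in supportive ISEMFs and 2 were lower, and 3 passed in neither direction. All 6 genes were expressed by this rule. Of the 10086 expressed genes of the whole table, 9.01% were called higher and 9.27% lower, so 18.3% were called in either direction. The median log2 ratio was -0.30 over the 6 genes and -0.07 over all 10086 genes. Log2 ratios put supportive over non-supportive values, each with 0.1 added to the deposited RPKM, so differences of weakly expressed genes are understated. Intervals are exact 95% Clopper-Pearson intervals from the reads and cover counting error only.

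**Figure D1:**
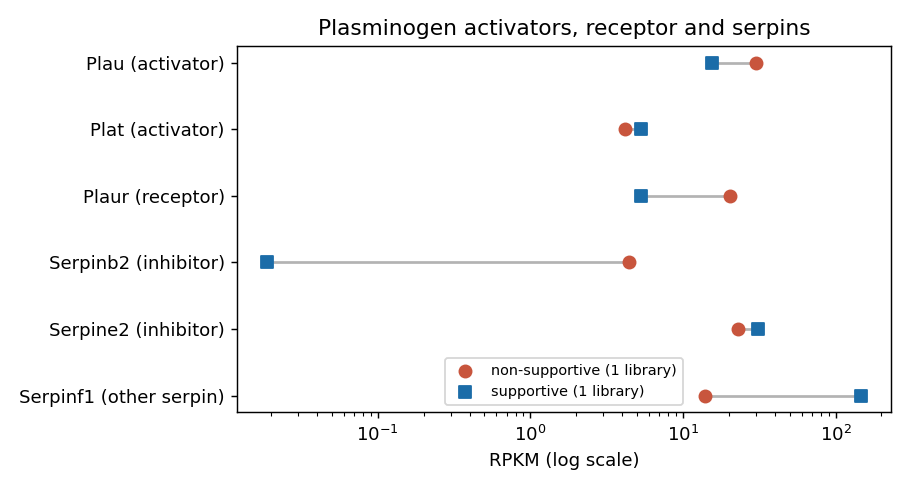
RPKM on a log scale of the 6 genes in the non-supportive library (circles) and the supportive library (squares), 1 library each and therefore without error bars. Serpinb2 spans 0.0188 to 4.45 and Serpinf1 14.0 to 146, while the points of Plat and Serpine2 lie close together.

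Promoter windows are shown for Plaur, Serpinb2 and Serpinf1, the genes that differed most, and for Serpine2. RefSeq windows on GRCm38.p6, which run from 250 bases before to 50 bases after the transcription start, were matched by symbol for 4 of the 6 genes, and Plau and Plat had no entry. Capitals mark matches on either strand to TGANTCA (AP-1, the site of Fos and Jun dimers), TATAAA (the TATA box) or GGGCGG (GC box). The windows are chr7:24462233-24462532 on the plus strand for Plaur, chr1:107511173-107511472 on the plus strand for Serpinb2 (the more upstream of its 2 windows), chr1:79858616-79858915 on the minus strand for Serpine2 and chr11:75422574-75422873 on the minus strand for Serpinf1.
Plaur: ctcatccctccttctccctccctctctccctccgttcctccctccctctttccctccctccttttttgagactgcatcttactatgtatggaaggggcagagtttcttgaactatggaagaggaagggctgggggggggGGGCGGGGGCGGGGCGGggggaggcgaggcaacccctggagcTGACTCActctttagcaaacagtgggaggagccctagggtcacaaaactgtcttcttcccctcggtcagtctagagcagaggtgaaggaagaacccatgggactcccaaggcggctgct
Serpinb2: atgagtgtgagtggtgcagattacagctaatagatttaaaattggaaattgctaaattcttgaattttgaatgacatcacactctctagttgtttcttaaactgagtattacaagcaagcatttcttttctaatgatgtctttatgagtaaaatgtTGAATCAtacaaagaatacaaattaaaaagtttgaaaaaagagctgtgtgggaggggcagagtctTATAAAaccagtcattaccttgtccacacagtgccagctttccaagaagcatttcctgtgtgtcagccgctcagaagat
Serpine2: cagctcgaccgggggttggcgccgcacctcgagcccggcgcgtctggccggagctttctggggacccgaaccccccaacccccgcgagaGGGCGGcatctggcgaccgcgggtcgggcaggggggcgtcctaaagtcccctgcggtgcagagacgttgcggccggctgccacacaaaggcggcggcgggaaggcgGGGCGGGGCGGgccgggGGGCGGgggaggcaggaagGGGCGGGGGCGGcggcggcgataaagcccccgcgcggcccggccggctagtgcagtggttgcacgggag
Serpinf1: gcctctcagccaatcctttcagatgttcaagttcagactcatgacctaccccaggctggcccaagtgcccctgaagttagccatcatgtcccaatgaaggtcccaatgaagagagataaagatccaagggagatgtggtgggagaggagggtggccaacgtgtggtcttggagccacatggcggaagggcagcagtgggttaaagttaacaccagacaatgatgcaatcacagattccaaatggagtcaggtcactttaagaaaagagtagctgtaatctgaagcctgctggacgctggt

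The Plaur window held TGACTCA starting at base 182 and 3 GC boxes. The Serpinb2 window held TGAATCA starting at base 157 and a TATA box starting at base 222, with bases counted from 1 at the 5′ end of the window. The Serpine2 window held 6 GC boxes and had a GC content of 77.7%, against a median of 52.7% over all 32851 windows. The Serpinf1 window held none of the 3 motifs, and its GC content was 50.7%. Of all windows, 7.81% held TGANTCA, 13.6% held TATAAA and 35.7% held GGGCGG on either strand. Neighbouring GC boxes shared 1 base at base 151 of the Plaur window and at base 201 of the Serpine2 window, and no other matches overlapped in these 4 windows. A match describes these letters only.

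Plau (ENSMUSG00000021822), the gene of urokinase, spans 21655884 to 21662610 of chromosome 14 in mm9 (plus strand), with exons in 11 separate blocks. Supportive ISEMFs gave 2609 Plau reads (RPKM 15.6), and non-supportive ISEMFs gave 4900 (RPKM 30.1). The RPKM was therefore 1.93-fold lower in supportive ISEMFs (95% interval 1.84 to 2.03), a log2 ratio of -0.95. The upper limit of that interval reached 2-fold, so at this depth Plau lay at the edge of the threshold. Among protein-coding genes Plau ranked 816 in non-supportive and 1483 in supportive ISEMFs.

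Plat (ENSMUSG00000031538), the gene of tPA, spans 23868216 to 23893319 of chromosome 8 (plus strand), with exons in 14 blocks. Plat had 963 reads (RPKM 5.32) in supportive ISEMFs, compared with 736 (RPKM 4.19) in non-supportive ISEMFs. The RPKM ratio was 1.27 (95% interval 1.15 to 1.40) and the log2 ratio 0.34, and Plat ranked 3991 and 4664 among protein-coding genes. The activators thus went in opposite directions. Within the non-supportive library the RPKM of Plau was 7.19 times that of Plat (95% interval 6.65 to 7.78), and within the supportive library 2.93 times (2.72 to 3.15). This change in the Plau to Plat ratio was 2.46-fold (95% exact interval 2.21 to 2.74), and it does not depend on how the libraries were scaled to each other. Summed over both activators, the RPKM was 34.3 in non-supportive and 20.9 in supportive ISEMFs.

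Plaur (ENSMUSG00000046223), the gene of the urokinase receptor, spans 25247519 to 25260892 of chromosome 7 (plus strand), with exons in 7 blocks. Its 528 reads in supportive ISEMFs (RPKM 5.29) compared with 1965 in non-supportive ISEMFs (RPKM 20.3). The receptor was 3.83-fold lower in supportive ISEMFs (95% interval 3.48 to 4.22), with a log2 ratio of -1.92. A lower log2 ratio was found for 3.51% of the expressed genes. Its promoter window above holds an AP-1 match, as do that of Serpinb2 and 7.81% of all windows. A part of such sites in the levels of these genes was not tested. The receptor differed more than its ligand, since the RPKM of Plau was 1.49 times that of Plaur in the non-supportive library (95% interval 1.41 to 1.57) and 2.94 times in the supportive library (2.68 to 3.24). That ratio changed by 1.98-fold (95% exact interval 1.78 to 2.21).

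Serpinb2 (ENSMUSG00000062345), the gene of plasminogen activator inhibitor-2, spans 109408000 to 109432055 of chromosome 1 (plus strand), with exons in 12 blocks in the reference annotation. Only 5 Serpinb2 reads were counted in supportive ISEMFs (RPKM 0.0188), but 1148 in non-supportive ISEMFs (RPKM 4.45). The difference was 236-fold (95% interval 101 to 729), and the wide interval follows from the 5 reads. The log2 ratio was -5.26, below which lay 0.258% of the expressed genes, and it was -7.81 with 0.001 added in place of 0.1. Serpinb2 was thus near the limit of detection in supportive ISEMFs, where it ranked 13620 among protein-coding genes, against 4505 in non-supportive ISEMFs. An annotated pseudogene, Serpinb10-ps, overlaps Serpinb2 on the same strand and had 1 read in supportive and 5 in non-supportive ISEMFs.

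Serpine2 (ENSMUSG00000026249), the gene of protease nexin-1, spans 79790772 to 79855271 of chromosome 1 (minus strand), with exons in 9 blocks. Supportive ISEMFs gave 9024 Serpine2 reads (RPKM 31.1), compared with 6493 (RPKM 23.0) from non-supportive ISEMFs. The RPKM ratio was 1.35 (95% interval 1.31 to 1.39), a log2 ratio of 0.43. The interval excludes equal levels as far as counting error goes, but 21.3% of the expressed genes had a higher log2 ratio. Plau was above Serpine2 in non-supportive ISEMFs, at 1.31 times its RPKM (95% interval 1.26 to 1.36), and below it in supportive ISEMFs, at 0.501 times (0.479 to 0.523). The summed RPKM of Serpinb2 and Serpine2 was 27.5 in non-supportive and 31.1 in supportive ISEMFs, which was 0.801 and 1.49 times that of the activators Plau and Plat.

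Serpinf1 (ENSMUSG00000000753), the gene of PEDF, spans 75223271 to 75236203 of chromosome 11 (minus strand), with exons in 9 blocks. Its 38153 reads in supportive ISEMFs (RPKM 146) compared with 3557 in non-supportive ISEMFs (RPKM 14.0). Serpinf1 was 10.4-fold higher in supportive ISEMFs (95% interval 10.1 to 10.8), with a log2 ratio of 3.37, and 1.08% of the expressed genes exceeded it. Its rank among protein-coding genes was 94 in supportive and 1808 in non-supportive ISEMFs. Of the summed RPKM of the 6 genes, at the deposited exon lengths, Serpinf1 made 71.9% in supportive and 14.6% in non-supportive ISEMFs.

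By RPKM, the order in the non-supportive library was Plau, Serpine2, Plaur, Serpinf1, Serpinb2 and Plat. In the supportive library it was Serpinf1, Serpine2, Plau, Plat, Plaur and Serpinb2. The neighbours Plat and Plaur in the supportive library, at 5.32 and 5.29, and Serpinb2 and Plat in the non-supportive library, at 4.45 and 4.19, were nearly level. Levels per length depend on the exon length used. The deposited table gives 3717 bases for Serpinb2, 4058 for Serpine2 and 3646 for Serpinf1, whereas the reference annotation gives 2349, 3830 and 2359, and both give the same lengths for Plau, Plat and Plaur. With the annotation's lengths Serpinf1 was at 21.7 and passed Plaur in the non-supportive library, and Serpinb2 was at 7.04 there. In the supportive library Serpinf1 was then at 226. Ratios, sums, shares and ranks within a library that involve these 3 serpins use the deposited lengths. Their values would move with the annotation's lengths, and the intervals do not cover that choice. The ratios between libraries do not use the length.

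**Figure D2:**
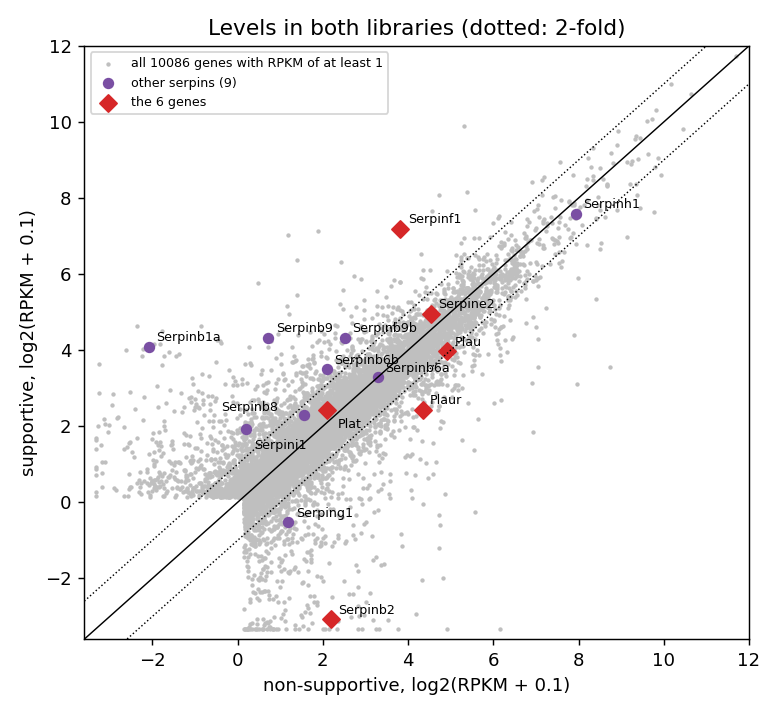
Level of each of the 10086 expressed genes, as log2(RPKM + 0.1) in non-supportive (x axis) and supportive (y axis) ISEMFs, 1 library each. Diamonds mark the 6 genes and larger circles 9 other expressed serpins; dotted lines mark a 2-fold difference, with Serpinf1 far above and Serpinb2 far below them.

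Markers of other cell types differed between the libraries beside these genes. Of 10 macrophage markers, 10 were higher in non-supportive ISEMFs, where their summed RPKM was 125, compared with 6.97. Lyz2 was the highest, at 72.7 against 6.31, and Tyrobp, Itgam, Ptprc and Emr1 had no read in the supportive library. Macrophages are known to express Plau, Plaur and Serpinb2, and the part of such cells in the lower Plau, Plaur and Serpinb2 of supportive ISEMFs was not tested. In bulk RNA, fewer cells of a type and less RNA per cell cannot be told apart. Endothelial markers, which would mark another known source of Plat, summed to an RPKM of 0.135 in supportive and 0.216 in non-supportive ISEMFs. They did not go one way, with Tek at 0.127 against 0.00402 and Kdr at 0.00359 against 0.162. Cdh5 and Pecam1 had no read in the supportive library, and Tie1 had none in either. Mesothelial markers summed to 0.127 in supportive and 0.0432 in non-supportive ISEMFs. Upk3b was the highest, at 0.125 against 0, and 2 of the 4 were higher in non-supportive ISEMFs. The epithelial sum was 7.68 in supportive and 0.128 in non-supportive ISEMFs, and the supportive sum was nearly all Lgr5, at 7.22 against 0.00443. Cdh1 went the same way, at 0.427 against 0.0497. Epcam and Vil1 were at 0 and 0.0239 in supportive and 0.0353 and 0.0281 in non-supportive ISEMFs, and Cldn7 had 2 reads in each library. Neuronal and glial markers summed to 8.67 and 3.71 but did not go one way, with S100b at 6.69 against 0.116, Tubb3 at 1.92 against 3.52 and Sox10 at 0 in both. The myofibroblast genes were present in both libraries, with Acta2 at 908 and Vim at 325 in supportive and 1410 and 407 in non-supportive ISEMFs, though Des was low at 0.575 and 3.40.

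Serpins differed in both directions between the populations. Of 66 genes with a serpin symbol, 33 had a read and 12 were expressed, with 6 higher and 2 lower by 2-fold in supportive ISEMFs. That is 66.7% of the 12, beside 18.3% of all expressed genes, and their median log2 ratio was 1.08, beside -0.07. The 12 include Serpinb2, Serpine2 and Serpinf1, and 4 of the 6 higher genes are clade B genes of chromosome 13. This list and those below were chosen with earlier results of these data known, so such shares are descriptive only. The 28 clade A genes, mostly liver serpins, held 0 expressed members.

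Besides Serpinb2, the serpin called lower was Serping1, the gene of the C1 inhibitor of the complement system, at an RPKM of 2.18 in non-supportive and 0.596 in supportive ISEMFs. The higher serpins besides Serpinf1 were 4 of clade B, the intracellular serpins, and Serpini1, the gene of neuroserpin, an inhibitor of tPA, at 3.73 in supportive and 1.06 in non-supportive ISEMFs. Serpinb1a, an inhibitor of neutrophil proteases, was at 16.9 with 3720 reads against 0.136 with 29 reads, a 125-fold difference (95% interval 86.7 to 186). Serpinb9, an inhibitor of granzyme B, was at 20.1 against 1.55, Serpinb9b 3.57-fold higher than its RPKM of 5.61 in non-supportive ISEMFs, and Serpinb6b at 11.2 against 4.17. These clade B genes lie on chromosome 13, where 5 of 16 members, a pseudogene included, were expressed. Of those 5, 4 were higher, beside 9.01% of all expressed genes. Of the 12 on chromosome 1, also with a pseudogene, Serpinb2 and Serpinb8 were expressed, and Serpinb8 was at 4.85 in supportive and 2.84 in non-supportive ISEMFs. Clade B genes on chromosome 13 include near-identical copies, among which uniquely mapped reads may be unevenly counted. Serpinb6a, at 9.72 and 9.70, differed by less than its counting error (95% interval of the ratio 0.964 to 1.04). Serpinh1, the collagen chaperone HSP47 and not a protease inhibitor, was the highest serpin in both libraries, at 193 in supportive and 247 in non-supportive ISEMFs.

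**Figure D3:**
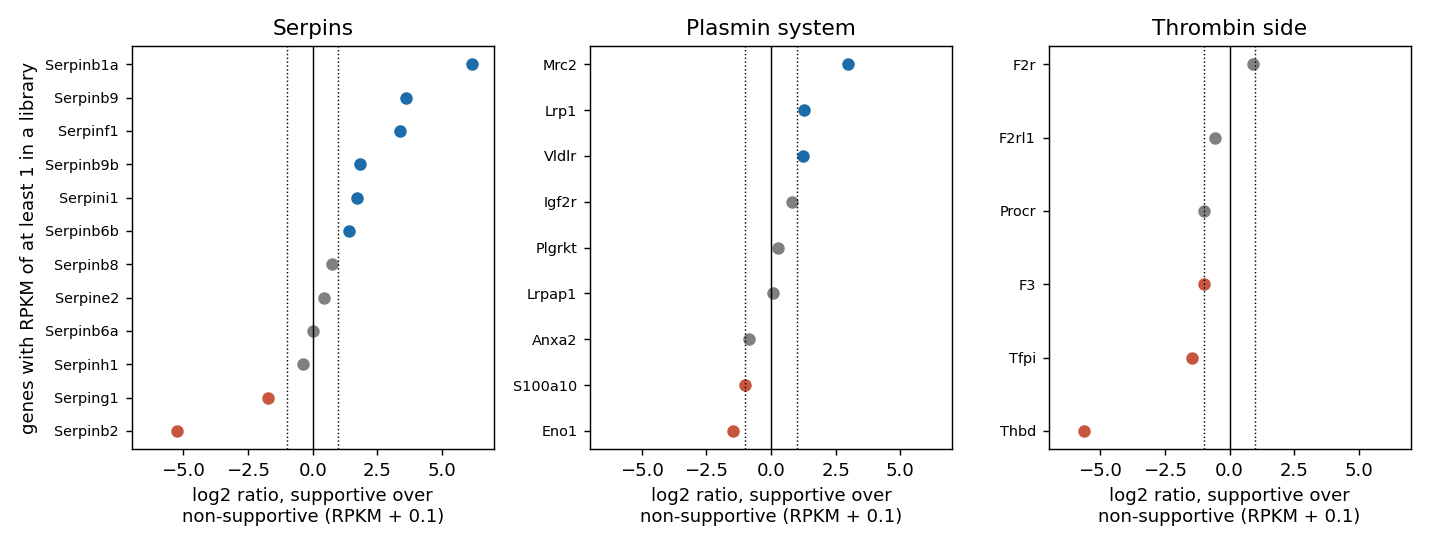
Log2 ratio (supportive over non-supportive, RPKM + 0.1, 1 library each) of the expressed genes of the serpin family (12 genes), the plasmin system (9) and the thrombin side (6). Dotted lines mark a 2-fold difference; blue points right of them are higher in supportive ISEMFs, red points left of them lower, and grey points passed in neither direction, with Serpinb1a and Serpinb2 at the ends of the serpin panel.

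The other genes of the plasmin system included those of the zymogen, its binding partners and the receptors that clear the complexes. Genes of further protease inhibitors and proteases were also on the list. Of 18 genes, 9 were expressed, 3 were higher and 2 were lower in supportive ISEMFs by 2-fold, with a median log2 ratio of 0.25. The 2-fold share was 55.6% of the 9, beside 18.3% of all expressed genes. Plg, the gene of plasminogen, had no read in either library, and 3 reads, the limit that a count of 0 allows, would be an RPKM of 0.0152 and 0.0157. Serpinf2, the gene of the plasmin inhibitor α2-antiplasmin, had 0 and 1 reads.

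Of the binding partners at the cell surface, S100a10 and Eno1 were called lower. S100a10 and Anxa2, whose proteins form a complex that binds plasminogen and tPA, were at 26.6 and 47.3 in supportive and at 53.4 and 85.5 in non-supportive ISEMFs. S100a10 was 2.01-fold lower in supportive ISEMFs and so lay on the threshold, which it passed neither with TMM factors nor with median-of-ratios size factors. Plgrkt, a plasminogen receptor that the table lists under an older symbol, was at 2.41 and 2.01. Eno1, which encodes a glycolytic enzyme that can also bind plasminogen, was at 0.682 with 383 reads and 2.06 with 1126 reads, and its value is uncertain because the gene has many near-identical pseudogenes.

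The 3 genes called higher encode endocytic receptors. Lrp1, the receptor that internalizes uPA and tPA complexes with their serpins, was at 38.3 in supportive and 15.8 in non-supportive ISEMFs, 2.41-fold higher (95% interval 2.38 to 2.45). Vldlr, a related receptor, was at 5.84 against 2.42. Mrc2, which encodes the uPAR-associated protein Endo180, a collagen uptake receptor, was at 20.9 against 2.57, a difference of 8.12-fold (95% interval 7.67 to 8.60). Igf2r, a receptor reported to bind uPAR and plasminogen, was at 44.4 against 25.4, a log2 ratio of 0.80, and the chaperone gene Lrpap1 was at 5.60 against 5.27. Mrc2 and Plaur, whose proteins associate at the cell surface, thus went in opposite directions.

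On the side of thrombin, a target of protease nexin-1, 6 of 11 genes were expressed and 3 were lower in supportive ISEMFs, with 0 higher, beside 9.27% lower and 9.01% higher among all expressed genes. Thbd, the gene of thrombomodulin, gave 17 reads (RPKM 0.0640) in supportive and 2064 (RPKM 7.99) in non-supportive ISEMFs, a 125-fold difference (95% interval 77.8 to 215). Tfpi, the gene of tissue factor pathway inhibitor, was at 12.9 against 35.9. F3, the gene of tissue factor, was at 42.4 against 85.0, and Procr, the gene of the protein C receptor, at 13.2 against 26.4. F3 was just past the 2-fold threshold and Procr just short of it, and the median of the 6 genes fell between them. F2r, the gene of the thrombin receptor PAR1, was at 270 in supportive and 142 in non-supportive ISEMFs, a log2 ratio of 0.92. F2rl1 was at 1.98 against 2.94. F2, the gene of prothrombin, had 2 reads in supportive and 0 in non-supportive ISEMFs.

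For each of the 6 genes, the protein-coding gene nearest in level over the 2 libraries was found by distance on the log2(RPKM + 0.1) scale. Only protein-coding genes were compared, at the deposited exon lengths, and with 2 libraries such nearness describes 2 values only. Serpinb2 lay nearest to Mmp13, which encodes collagenase-3 and was at 0.0209 in supportive and 4.34 in non-supportive ISEMFs, at a distance of 0.043. With 4 supportive reads for Mmp13 and 5 for Serpinb2, both were near the limit of detection there. Their nearness therefore rests mainly on the non-supportive level, and Serpinb2 had 2 genes within 0.25. At its deposited length Serpinf1 lay apart from all other protein-coding genes, with 0 within a distance of 0.25. The nearest was Aebp1 at 92.3 and 19.7, 0.82 away. Plaur had 5 genes within 0.25, the nearest being Cldn12 with 3162 reads in supportive and 10645 in non-supportive ISEMFs. Plau lay nearest to Pkm2 at 15.0 and 30.0, Plat to Dtl at 5.38 and 4.17, and Serpine2 to Anp32a at 30.1 and 23.3, and these 3 genes had 35, 188 and 41 genes within 0.25.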

How the data were processed

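Purified mRNA of 1 supportive and 1 non-supportive ISEMF population was sequenced by the authors as single-end reads of 50 bases. Per the labels and the study's methods, reads were aligned to mm9 with TopHat2 2.0.4 and Ensembl genes, with 2 mismatches and unique hits allowed, and counted with HTSeq 0.5.4p3. The deposited counts are unnormalized whole reads, and the RPKM values from the authors divide them by the union of exons and by the library size. Whether counting used strand is not given in the sources used here. The exon length of each gene, another deposited column, was used for levels per length and floors. The deposited table also holds the authors' log2 ratios and DESeq p-values for this comparison, which were not used, and the shorter deposited table of Wnt pathway genes holds none of the 6 genes. Supportive ISEMFs gave 50674472 reads on genes and non-supportive ISEMFs 49615497, of which mitochondrial ribosomal RNA took 13.5% and 7.13%.

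For log2 ratios 0.1 was added to each RPKM as a pseudocount, and genes were called at 2-fold over those with an RPKM of at least 1 in a library. With 1 library per population, edgeR's quasi-likelihood test could not be fitted and no p-value is given. Ratios carry exact 95% Clopper-Pearson intervals from the reads, and ratios of ratios carry exact conditional intervals of the odds ratio. Coordinates came from GENCODE vM1 of the same genome build, which holds all 37309 gene identifiers. Genes were named by rule: the 6 genes, the expressed genes of the serpin family, plasmin system and thrombin side lists that passed 2-fold or had an RPKM of at least 10, the nearest gene, and the highest marker of each cell type. Serpinb6a, Serpinb8, Plgrkt, Lrpap1, F2rl1, Plg, Serpinf2, F2 and further markers were named outside that rule after their values were seen. Plgrkt was found through its RefSeq synonyms. A further serpin is not reported here and was left out of the family counts. The 6 genes and the lists were chosen with earlier results of these data known. Alternatives were other pseudocounts, minimums and thresholds, TMM factors (edgeR 4.0.16), median-of-ratios size factors (DESeq2 1.42.0), protein-coding library sizes and centring, and the exon lengths of GENCODE vM1 were added after the data were seen. The scripts were tested on simulated data. Python 3.11.15, pandas 2.3.3, scipy 1.17.1, matplotlib 3.10.9 and R 4.3.3 were used.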

Additional observations from a re-analysis of the deposited data

How the results depend on the processing

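All 6 genes kept the direction of their log2 ratio under all 6 alternatives, and Plaur, Serpinb2 and Serpinf1 stayed past 2-fold in each of these, while Plau, Plat and Serpine2 passed it in none. A pseudocount cannot reverse a direction, and the scale changes shifted the median by at most 0.12. The smallest log2 ratio was 0.34, of Plat, so no direction could have reversed. Variation between libraries is not covered by these alternatives. With a pseudocount of 1 the log2 ratio was -1.76 for Plaur, -2.42 for Serpinb2 and 3.29 for Serpinf1, and with 0.001 it was -7.81 for Serpinb2, whose 5 reads in the supportive library make its size depend on the pseudocount. With protein-coding library sizes, which shift the median of all genes by 0.12, it was -0.83 for Plau, 0.55 for Serpine2 and 3.49 for Serpinf1. Centred on the median of all genes it was -0.87, 0.51 and 3.45, and with TMM factors 0.49 for Serpine2 and 3.43 for Serpinf1. The other alternatives moved the log2 ratios by less than their counting intervals.

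Of the 10086 expressed genes, 1844 passed 2-fold, 659 passed a 4-fold threshold and 1199 passed 2-fold with a pseudocount of 1. With a minimum RPKM of 5, 878 of 5061 genes passed 2-fold, and with no minimum 3660 of 37309 did. The split of 909 higher and 935 lower became 1054 and 786 with protein-coding library sizes and 976 and 863 with TMM factors. At 4-fold, 4 of 12 serpins, 1 of 9 plasmin system genes and 1 of 6 thrombin side genes passed, beside 659 of 10086 expressed genes. With a minimum RPKM of 5, 5 of 8 serpins passed 2-fold, against 8 of 12 with a minimum of 1. With a pseudocount of 1, 3 of 9 plasmin system genes passed 2-fold, against 5 of 9. With no minimum RPKM 5 of 11 thrombin side genes did, against 3 of 6. S100a10 and F3 lost their 2-fold calls with a pseudocount of 1, TMM factors, median-of-ratios size factors and protein-coding library sizes. Serping1 and Eno1 lost theirs with a pseudocount of 1, F2r was higher by 2-fold with protein-coding library sizes, at a log2 ratio of 1.04, and Procr was lower by 2-fold with a pseudocount of 0.001. No paired analysis was possible because each population has 1 library, and for the same reason no library could be left out.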

Other observations

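Of the 6 protein-coding genes that flank Plaur, Serpinb2 and Serpinf1, Cadm4 and Serpinb8 were expressed, and the others were below an RPKM of 1 in both libraries. The neighbours of Serpinf1, the gene Smyd4 and its own relative Serpinf2, were at RPKM values of 0.806 and 0 in supportive and 0.889 and 0.00368 in non-supportive ISEMFs. Next to Serpinb2, Serpinb7 had no read in either library and Serpinb8 was at 4.85 and 2.84. Cadm4, which follows Plaur 6150 bases downstream, went the other way, with 162 reads and an RPKM of 1.05 in supportive and 40 reads and 0.267 in non-supportive ISEMFs. Vcl, the gene of vinculin that follows Plau, was at 33.8 and 48.6, and Ap3m2, 4507 bases beyond Plat, was at 7.05 and 4.94.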
